A study of Arabidopsis thaliana with 12 samples.

Results

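The response of Arabidopsis seedlings to shade and warmth given together was compared with the sum of the responses to each given alone. The comparison asks, gene by gene, whether warmth acted alike in white light and in shade, or equally whether shade acted alike at both temperatures. All 12 libraries of the series entered it, and every gene with a log2 value of at least 0 in at least 3 libraries was tested, which kept 21316 of the 33602 genes listed. Of these, 95 genes (0.446%) departed from the sum of the single responses, 27 above it and 68 below it. They were chosen by the test of the interaction itself, so their interaction values are the result of that test over all genes and not separate evidence for the groups described further on.

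Whole seedlings of the Columbia wild type (Columbia 0), the genotype of all groups, were raised at 22 °C on agar in water, with 10 h days of white light at 100 µmol m-2 s-1 and a red to far-red ratio of 1.1. At 3 days of age they spent the 10 h photoperiod of day 4 under 1 of 4 regimes and were collected at its end. White light at 20 °C served as the control and is called cool white light here; 28 °C in the same light is called warm white light, and shade was given cool (20 °C) or warm (28 °C). Each of the 4 groups had 3 libraries, described as biological replicates. The spectrum of the shade is not given in the sources used here, and whole seedlings mix cotyledon, hypocotyl and root, so fewer cells of a type and less RNA per cell cannot be told apart.

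As background, plants read neighbours from the fall in the ratio of red to far-red light, which lowers the active form of phytochrome B. Warmth also lowers active phytochrome B, because the active form reverts faster in warm cells. Less active phytochrome releases growth-promoting factors of the PIF family, which raise auxin synthesis and the elongation of the hypocotyl, so both cues share a part of their path. Warmth is in addition read by heat shock factors, and cold or water shortage by the CBF factors and abscisic acid, with their own target genes.

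The 12 libraries held between 3500325 and 4481869 assigned reads. The share of reads in the 18S ribosomal RNA genes, a part that polyA selection should remove, lay between 0.535% and 2.35%, with the highest values in library 2 of warm shade and library 3 of warm white light. Markers of green tissue were present throughout: the 45 nuclear photosynthesis genes of the list took 14.1% ± 0.337 of reads (SD, n = 3) in cool white light, 8.4% ± 1.42 in warm white light, 10.2% ± 0.978 in cool shade and 6.94% ± 1.22 in warm shade. Markers of seed storage, by contrast, stayed at or below 0.0242% of reads in every library. The part of these shifts in the results was not tested.

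A gene adds when its combined response, warm shade against cool white light, equals the warmth response in white light plus the shade response at 20 °C. All 3 are differences of mean log2 CPM (log2 of reads scaled to library size), so addition here means that the folds multiply. The interaction is the combined response minus that sum, which is the same number as the warmth response in shade minus the warmth response in white light. With limma and Benjamini-Hochberg adjustment over 21316 genes, 0.446% of the genes tested passed the threshold of 0.05 on the adjusted p, 0.127% above and 0.319% below the sum. The balance depends on the scaling between libraries: 71.6% of calls lay below the sum as deposited, and 60.6% with library medians subtracted, 55.9% with trimmed mean scaling and 52.6% with quantile normalization. At an unadjusted p under 0.05 there were 2101 genes. By comparison, 15.6% of the genes tested changed with warmth alone, 8.09% with shade alone and 22.3% with both cues together. The interaction has the largest error of these contrasts, with a median SE of 0.32 on the log2 scale against 0.227 for the others, and the median interaction of all genes was -0.08.

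The departures ran almost all in one sense. In 89 of the 95 genes both single responses had the same sign and the combined response fell short of their sum, as it did in 59.2% of all genes tested. None went beyond the sum of 2 responses of the same sign, and the other 6 had single responses of opposite sign; over all genes these classes held 11.1% and 29.6%. Among the 2101 genes at an unadjusted p under 0.05, 1886 fell short, 18 went beyond and 197 had opposed responses. The white light libraries at 20 °C enter both single responses with the same sign and the interaction with the opposite one, so a part of this split follows from the arithmetic, and no test was made of it. Of the 89 genes past the threshold that fell short, 16 above and 40 below the sum had a combined response within 0.5 log2 units of the larger single one. That count was not made over all genes tested, so no more is read from it. In the plot of combined response against sum the 95 genes, chosen by their distance from equality, form a flatter line than equality.

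**Figure D1:**
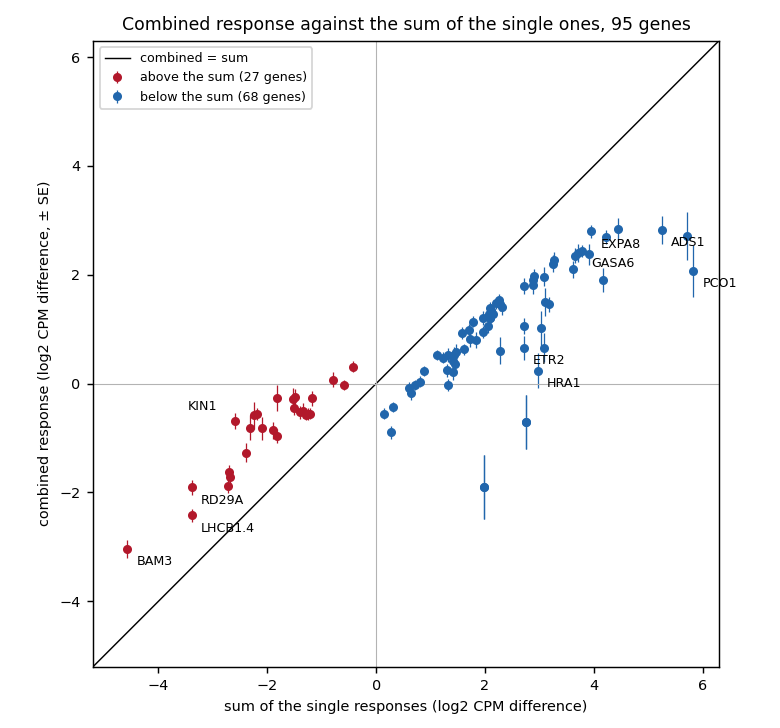
Each point is a gene past the threshold, placed by the sum of its warmth and shade responses (x axis, log2 CPM difference) and by its combined response (y axis, log2 CPM difference, bars show ± SE of the fit), with the line of equality. The 27 red genes lie above the line, all at negative sums, and the 68 blue genes lie below it, all at positive sums.

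The warmth responses in white light and in shade rest on different libraries, but both enter the contrast that chose the genes. The 27 genes above the sum fell with warmth in white light, with a median of -0.98 log2 units, and had a median warmth response of 0.03 in shade, where 6 fell and 21 did not pass. Among the 68 genes below the sum, 62 rose with warmth in white light, where the median was 1.05, while in shade 9 rose, 7 fell and 52 did not pass, with a median of 0.10. The background for these calls was 10.8% higher and 4.8% lower with warmth in white light, and 2.19% higher and 1.99% lower with warmth in shade. Warmth in shade changed 4.18% of all genes in either direction, and 22 of the 95. In all, 73 genes passed with warmth in white light only, 6 in shade only, 15 in both with the same direction and 1, AZI1, in opposite directions. Shade alone lowered 21 of the 27 genes above the sum (background 2.66%) and raised 50 of the 68 below it (5.43%); both cues together lowered 19 of the 27 (7.42%) and raised 50 of the 68 (14.9%). At 28 °C shade raised 9 and lowered 2 of the 27, and raised 17 and lowered 25 of the 68, where it raised 2.68%, lowered 1.9% and so changed 4.59% of all genes. For each gene the difference between its 2 warmth responses is the interaction that was tested. Every call counted here, for warmth, shade or both, uses groups that enter that interaction. The counts therefore follow in part from the choice of the genes, and their distance to the background carries no test. The 3 values of cool white light did not overlap with the 3 of warm white light in 89 of the 95 genes, against 32.5% of all genes tested, and the shade groups did not overlap in 41, against 21.9%. The white light and the shade libraries are all part of the contrast that chose the genes. Nothing is therefore read from either of these counts, from the distance between them or from their distance to the shares of all genes.

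The genes were sorted by known role into 7 groups that hold 55 genes, with 40 left over. These groups were written after the values were seen, so their sizes describe the 95 genes and carry no test. The plot of warmth responses shows them side by side.

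**Figure D2:**
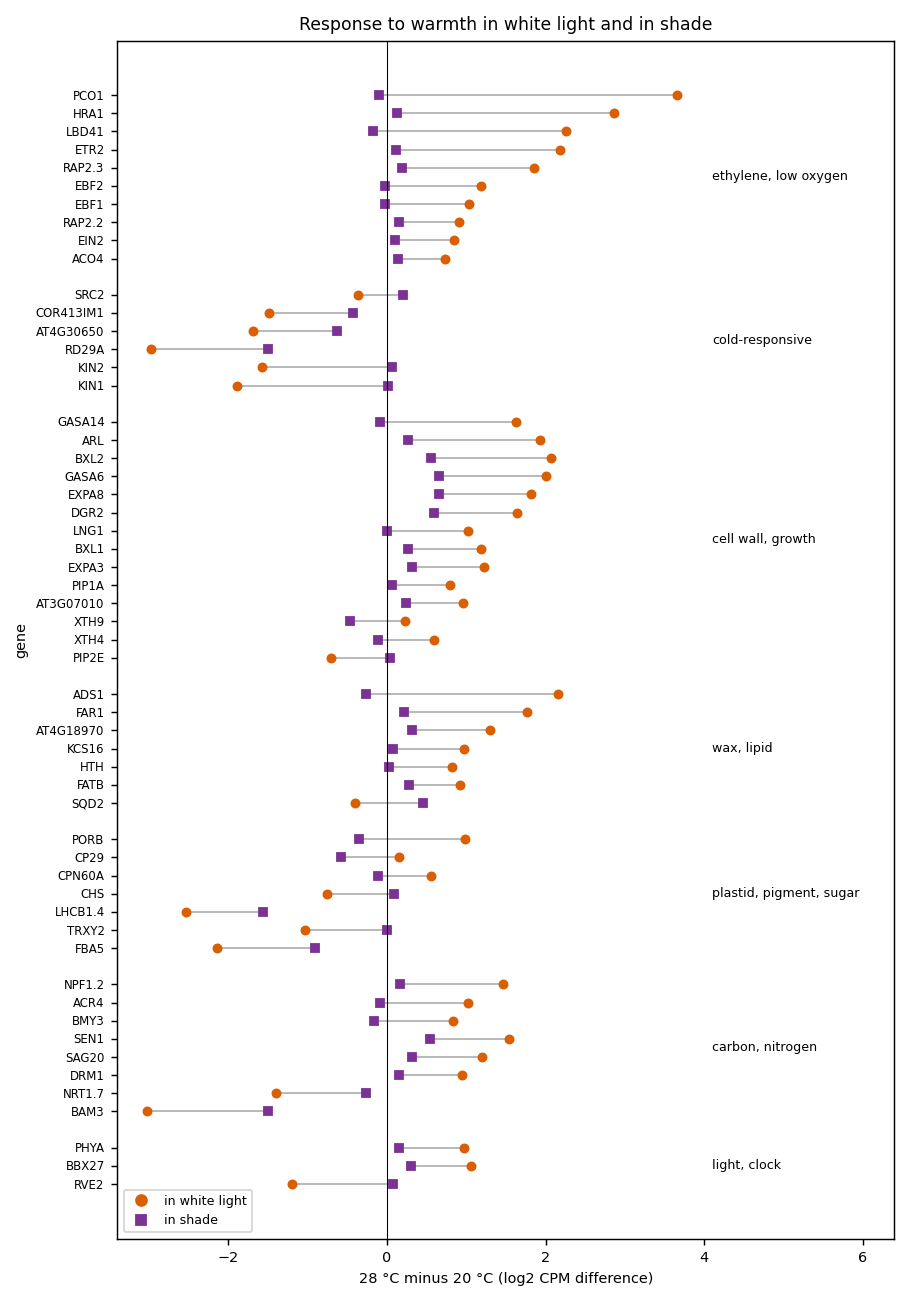
Response to warmth (x axis, 28 °C minus 20 °C, log2 CPM difference) of 55 genes in white light (orange circles) and in shade (purple squares), by role. The 10 ethylene and low oxygen genes all lie between 0.73 and 3.66 in white light and between -0.17 and 0.19 in shade, and most squares of the other groups lie nearer to 0 than their circles.

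Genes of ethylene signalling and of the response to low oxygen had the largest median interaction of the role groups, -1.44. All 10 lay below the sum and rose with warmth in white light, and none passed with warmth in shade. Over all genes 10.8% rose with warmth in white light and 2.19% rose with it in shade. Both counts follow in part from the choice of the genes. Ethylene is perceived by receptors in the endoplasmic reticulum that keep EIN2 inactive until the gas binds. EIN2 then protects the transcription factors EIN3 and EIL1 from the F-box proteins EBF1 and EBF2. Oxygen is sensed through the group VII ERF factors, which PCO enzymes mark for breakdown while oxygen is plentiful.

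ETR2 (AT3G23150), an ethylene receptor that ethylene itself induces, stood at log2 CPM of 4.05, 4.42 and 4.23 in cool white light, 5.70, 6.52 and 7.01 in warm white light, 4.40, 4.99 and 4.92 in cool shade and 4.57, 5.06 and 5.02 in warm shade. Only the warm white light libraries were high, and they did not overlap with any other group. Warmth raised ETR2 by 2.18 in white light and changed it by 0.11 in shade, an interaction of -2.06 ± 0.315 (SE, limma adjusted p = 0.000726).

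EBF2 (AT5G25350), an F-box protein that removes EIN3, had log2 CPM of 6.85, 6.90 and 6.76 in cool white light, 7.61, 8.03 and 8.42 in warm white light, 6.88, 7.23 and 7.12 in cool shade and 7.09, 6.75 and 7.30 in warm shade. Again the warm white light libraries alone were high. Its interaction was -1.21 ± 0.208 (limma adjusted p = 0.00314), and that of its homologue EBF1 (AT2G25490) was -1.06 ± 0.174 (limma adjusted p = 0.00179). EIN2 (AT5G03280) had an interaction of -0.75 ± 0.133 and ACO4 (AT1G05010), an ACC oxidase of the last step of ethylene synthesis, one of -0.59 ± 0.134 (limma adjusted p = 0.00483 and 0.0374). The ACO4 call is the weakest of the group and was lost in 10 of the 12 fits that left out 1 library, with values from -0.69 to -0.51.

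The low oxygen genes moved in the same direction. HRA1 (AT3G10040), a trihelix factor that restrains the group VII factor RAP2.12, was at log2 CPM of 2.77, 2.28 and 2.75 in cool white light, 4.82, 5.70 and 5.87 in warm white light, 2.51, 2.50 and 3.11 in cool shade and 3.02, 3.43 and 2.05 in warm shade. Its interaction of -2.74 ± 0.458 (limma adjusted p = 0.00223) is a warmth response of 2.86 in white light and 0.13 in shade.

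PCO1 (AT5G15120), a cysteine oxidase that marks group VII factors for breakdown, had log2 CPM of 2.19, 2.35 and -0.49 in cool white light, 4.304, 4.92 and 5.80 in warm white light, 2.86, 4.14 and 3.56 in cool shade and 3.25, 3.53 and 3.48 in warm shade. It rose with shade alone too, by 2.17, and the combined response of 2.07 was no larger than that (interaction -3.76 ± 0.685, limma adjusted p = 0.0054). Library 3 of cool white light, at -0.49, was far below the rest of its group, whose SD was 1.59. All these responses use that group. With 1 library left out the interaction of PCO1 ranged from -4.26 to -2.84. LBD41 (AT3G02550), a LOB domain factor induced by low oxygen, had log2 CPM of 4.72, 4.06 and 3.70 in cool white light, 5.69, 6.60 and 6.98 in warm white light, 4.82, 5.14 and 5.02 in cool shade and 4.22, 5.49 and 4.75 in warm shade. The interaction was -2.43 ± 0.385 (limma adjusted p = 0.00122).

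Both group VII factors in the group did likewise. RAP2.3 (AT3G16770) was at 5.44, 5.45 and 5.30 in cool white light, 6.80, 7.23 and 7.72 in warm white light, 6.34, 6.09 and 6.33 in cool shade and 6.34, 6.49 and 6.51 in warm shade, with an interaction of -1.67 ± 0.21 (limma adjusted p = 5.7e-05). It rose with shade alone as well, and the shade groups met at 6.34. RAP2.2 (AT3G14230) rose by 0.92 with warmth in white light and changed by 0.15 in shade (interaction -0.77 ± 0.138, limma adjusted p = 0.00508), while RAP2.12, tested but not past the threshold, had an interaction of 0.03 ± 0.128 (limma adjusted p = 0.958).

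**Figure D3:**
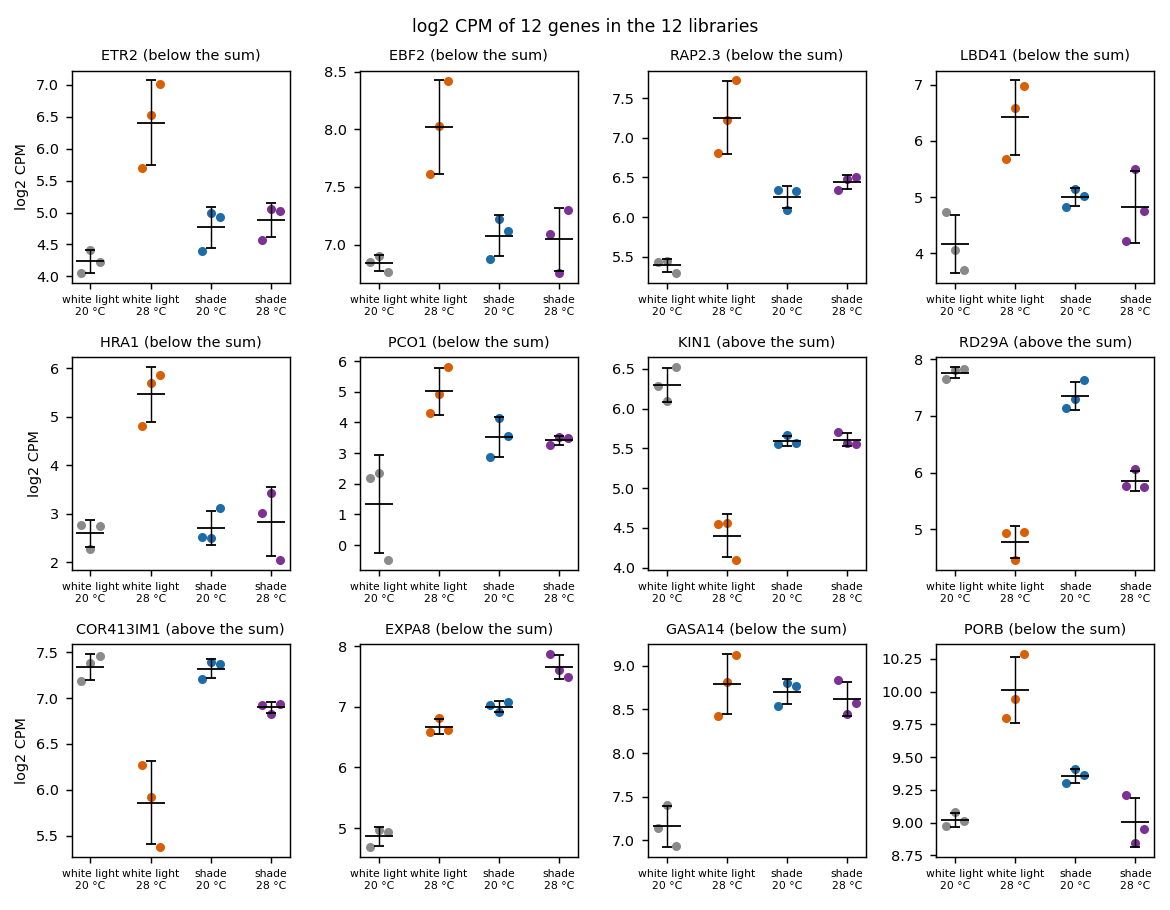
log2 CPM (y axis) of 12 genes in every library, by group (x axis); points are libraries, horizontal marks are group means and bars are ± SD (n = 3). ETR2, EBF2, LBD41 and HRA1 are high in warm white light only, KIN1 is lowest there, and EXPA8 rises in all treated groups with the highest values in warm shade.

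The warm white light libraries differed among themselves in these genes. Library 1 was the lowest of the 3 in all 10 genes and library 3 the highest in 8. Library 3 is the library with 2.3% of reads from 18S genes, where libraries 1 and 2 had 1.11% and 0.839%. In 9 of the 10 genes the call held without any one library, and 6 held without the library with most 18S reads of each group. The part of these library differences in the result was not tested. The calls of LBD41, EBF2 and PCO1 were lost with a robust prior variance. None of the 10 passed with a constant prior variance or on the linear CPM scale.

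Most genes of the wider lists of both pathways did not pass. Of 14 tested genes of the low oxygen list 4 passed, all below, and the list median was -1.33. Its fermentation genes did not pass: ADH1, alcohol dehydrogenase, had an interaction of -1.44 ± 0.913, PDC1, pyruvate decarboxylase, one of -0.51 ± 0.598, and the sucrose synthase SUS1 one of -0.43 ± 0.221. Of 14 ethylene pathway genes, in a list written after the values were seen, 5 passed, all below, with a median of -0.57. Over all genes tested 0.319% passed below the sum. The receptors ETR1 and EIN4 had interactions of -0.11 ± 0.246 and 0.00 ± 0.208, and the factors EIN3 and EIL1 of -0.32 ± 0.151 and -0.07 ± 0.145. These transcripts did not pass, so within the pathway the called genes were ETR2, EIN2, EBF1, EBF2 and ACO4.

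The cold-responsive genes lay on the other side of the sum. KIN1, KIN2, RD29A, COR413IM1, AT4G30650 and SRC2 all fell with warmth in white light, and fell less or did not pass in shade, so all 6 lay above the sum. Their transcripts accumulate in cold, drought or abscisic acid, through CBF factors at the drought response element (DRE) and bZIP factors at the abscisic acid response element. Over all genes 4.8% fell with warmth in white light and 1.99% in shade. The pattern of the 6 genes follows in part from their choice.

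KIN2 (AT5G15970), a small hydrophilic protein of cold-treated plants, had the smallest adjusted p of all genes. It stood at log2 CPM of 8.76, 8.54 and 9.03 in cool white light, 7.30, 7.19 and 7.11 in warm white light, 8.08, 8.11 and 8.27 in cool shade and 8.39, 8.13 and 8.12 in warm shade. The warm white light libraries were lowest and overlapped with no other group. Warmth changed KIN2 by -1.58 in white light and 0.06 in shade, an interaction of 1.63 ± 0.155 (limma adjusted p = 1.33e-06).

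KIN1 (AT5G15960), its neighbouring paralogue, was at 6.29, 6.09 and 6.52, then 4.55, 4.57 and 4.09, in cool and warm white light, and at 5.55, 5.67 and 5.57, then 5.70, 5.57 and 5.55, in shade. Its interaction of 1.91 ± 0.2 (limma adjusted p = 5.23e-06) was the largest positive one past the threshold. Reads of the paralogues may have been divided between them, which leaves the level of each uncertain, and KIN1 and KIN2 are not independent cases.

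RD29A (AT5G52310), the classic target of CBF and drought signals, differed from KIN1 and KIN2: warmth lowered it in both lights. Warmth also lowered AT4G30650 in both, with changes of -1.69 in white light and -0.62 in shade. RD29A fell from 7.65, 7.81 and 7.82 to 4.94, 4.46 and 4.95 in white light, and from 7.13, 7.31 and 7.63 to 5.75, 6.06 and 5.74 in shade. The changes were -2.98 and -1.50, an interaction of 1.48 ± 0.193 (limma adjusted p = 9.69e-05). COR413IM1 (AT1G29395), a protein of the inner chloroplast envelope, was at 7.18, 7.38 and 7.46, then 6.28, 5.92 and 5.38, in white light and at 7.204, 7.39 and 7.37, then 6.93, 6.83 and 6.94, in shade (interaction 1.06 ± 0.202, limma adjusted p = 0.00866). Its shade response alone was -0.02. AT4G30650, of a family induced by low temperature and salt, had an interaction of 1.07 ± 0.19 and SRC2 (AT1G09070), a C2 domain protein, one of 0.57 ± 0.126 (limma adjusted p = 0.0043 and 0.033). Only the SRC2 call depended on single libraries in this group, lost in 8 of the 12 fits with values from 0.53 to 0.62, and 3 of the 6 genes were kept without the library of most 18S reads in each group.

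Of 15 tested genes of the list of cold and abscisic acid genes, 4 passed, all above, where 0.127% of all genes passed above. The list median was 1.06 against -0.08 for all genes. COR15A, a chloroplast protein that protects membranes in cold, had a larger estimate of 3.82 ± 0.965 and did not pass (limma adjusted p = 0.0768), and COR15B had 1.51 ± 0.375 (limma adjusted p = 0.067). The SD of COR15A among warm white light libraries was 2.57 log2 units, and without library 1 of that group its interaction was 5.13 (limma adjusted p = 8.93e-05), while without library 3 it was 2.56 (limma adjusted p = 0.105). The abscisic acid genes RD29B and RAB18 had interactions of 0.02 ± 0.904 and 0.45 ± 1.05, and the dehydrins COR47 and ERD10 of 0.55 ± 0.156 and 0.61 ± 0.177, none past the threshold.

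Windows of 300 bases before the annotated start, in the RefSeq assembly TAIR10.1, are shown for 3 of the cold-responsive genes because they hold the core letters of the sites that the background names. RD29A lies on the plus strand at chr5:21240417-21240716, AT4G30650 on the plus strand at chr4:14953904-14954203 and COR413IM1 on the minus strand at chr1:10289667-10289966. Capitals mark ACCGAC or GCCGAC (the core of the drought response element), ACGTGGC (the core of the abscisic acid response element) and CACGTG (the G-box, a site of PIF and bZIP factors), read on both strands. The form ACCGAC was added after the RD29A window had been read.
RD29A: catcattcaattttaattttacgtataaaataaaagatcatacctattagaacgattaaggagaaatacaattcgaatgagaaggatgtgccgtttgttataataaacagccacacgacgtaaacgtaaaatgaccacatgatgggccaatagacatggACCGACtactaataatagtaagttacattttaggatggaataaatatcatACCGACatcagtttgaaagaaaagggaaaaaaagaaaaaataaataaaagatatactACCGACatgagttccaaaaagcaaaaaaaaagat
AT4G30650: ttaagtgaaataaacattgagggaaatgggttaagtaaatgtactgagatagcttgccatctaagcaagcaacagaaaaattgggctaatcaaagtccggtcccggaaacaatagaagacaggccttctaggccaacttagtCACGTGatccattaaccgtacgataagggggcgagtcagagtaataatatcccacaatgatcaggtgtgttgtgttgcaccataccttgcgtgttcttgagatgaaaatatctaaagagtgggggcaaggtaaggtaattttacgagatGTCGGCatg
COR413IM1: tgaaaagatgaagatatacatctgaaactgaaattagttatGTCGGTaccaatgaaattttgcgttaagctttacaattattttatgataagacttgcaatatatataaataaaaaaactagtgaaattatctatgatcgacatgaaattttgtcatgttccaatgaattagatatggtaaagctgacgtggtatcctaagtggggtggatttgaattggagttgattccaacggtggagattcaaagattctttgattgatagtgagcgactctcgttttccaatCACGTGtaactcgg
RD29A has 3 copies of ACCGAC, COR413IM1 has 1 with a G-box, and AT4G30650 has 1 GCCGAC with a G-box. The windows of the other 3 cold-responsive genes, KIN1, KIN2 and SRC2, hold none of these letters, and KIN1 and KIN2 have the largest interactions of the group.

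Genes of the cell wall and of organ growth formed the largest group, 14 genes of which 13 lay below the sum. Of the 13, 11 rose with warmth alone and with shade alone, while warmth in shade raised 4, lowered 1 and did not pass in 8. Over all genes 10.8% rose with warmth alone and 5.43% with shade alone, and warmth in shade raised 2.19% and lowered 1.99%. The counts follow in part from the choice of the genes. Expansins loosen the bonds between wall polymers, XTH enzymes cut and join xyloglucan, and GASA peptides follow gibberellin.

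EXPA8 (AT2G40610), an alpha-expansin, was at log2 CPM of 4.69, 4.97 and 4.93 in cool white light, 6.59, 6.81 and 6.62 in warm white light, 7.03, 6.91 and 7.08 in cool shade and 7.87, 7.61 and 7.50 in warm shade. No groups overlapped, and the order ran from cool white light up to warm shade. The singles were 1.81 and 2.14 and the combined response was 2.80, so the interaction was -1.16 ± 0.163 (limma adjusted p = 0.000249). On the linear CPM scale the EXPA8 interaction was 0.011 of the gene's mean CPM (limma adjusted p = 0.99), the only gene of the 95 to change sign there.

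GASA14 (AT5G14920) stood at 7.14, 7.40 and 6.93 in cool white light, 8.43, 8.82 and 9.12 in warm white light, 8.54, 8.80 and 8.77 in cool shade and 8.83, 8.45 and 8.58 in warm shade. The 3 treated groups overlapped, and all 9 of their libraries were above cool white light. Its interaction was -1.71 ± 0.193 (limma adjusted p = 1.47e-05). GASA6 (AT1G74670) rose by 2.004 and 1.78 with the single cues and by 2.44 with both (interaction -1.35 ± 0.167, limma adjusted p = 4.72e-05).

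LNG1 (AT5G15580), which promotes lengthwise cell growth, responded by 1.02 to warmth, 0.95 to shade and 0.95 to both, with an interaction of -1.02 ± 0.162 (limma adjusted p = 0.00123). BXL2 (AT1G02640), a beta-xylosidase of the wall, had an interaction of -1.51 ± 0.223 (limma adjusted p = 0.000574) and its homologue BXL1 (AT5G49360) one of -0.92 ± 0.178 (limma adjusted p = 0.01). The BXL1 call was lost without library 3 of cool shade (-0.79). ARL (AT2G44080), an ARGOS-like growth gene, rose with warmth alone by 1.93 and did not pass with shade (0.35), with an interaction of -1.66 ± 0.342 (limma adjusted p = 0.0183), lost in 4 of the 12 fits with 1 library left out (-2.05 to -1.35 over the 12).

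The aquaporins, channels that pass water through the plasma membrane, went opposite ways. PIP1A (AT3G61430) rose with both cues and lay below the sum (-0.74 ± 0.148), whereas PIP2E (AT2G39010) fell with warmth in white light by 0.70 and changed by 0.03 in shade, above the sum (0.74 ± 0.144; limma adjusted p = 0.0155 and 0.0119). XTH9 (AT4G03210) did not pass for either single cue (0.23 and -0.09) and fell with both by 0.56 (interaction -0.70 ± 0.146, limma adjusted p = 0.019). Its call was lost without library 2 of warm white light (-0.62), library 2 of cool shade (-0.61) or library 3 of warm shade (-0.69).

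EXPA3 (AT2G37640), XTH4 (AT2G06850), DGR2 (AT5G25460) and the pectate lyase gene AT3G07010 rose with both single cues and had interactions of -0.92 ± 0.197, -0.70 ± 0.153, -1.05 ± 0.229 and -0.73 ± 0.157. Each of these calls was lost in 7 to 9 of the 12 fits that left out 1 library, with values from -1.29 to -0.61, and PIP1A was lost in 4 with values from -0.81 to -0.60. Over the group, 6 of 14 calls held without any one library and 8 without the library with most 18S reads of each group. Of the 27 genes of the list of wall-loosening enzymes, 4 passed, all below, where 0.319% of all genes passed below. The list median was -0.20. XTH15, strongly raised by shade (3.75), had an interaction of -0.99 ± 0.272 and did not pass (limma adjusted p = 0.115), but passed without library 1 of warm white light (-1.25, limma adjusted p = 0.00887). Without library 3 of that group it was -0.62 (limma adjusted p = 0.228).

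Of 7 genes of wax, cuticle and membrane lipid, 6 lay below the sum. ADS1 (AT1G06080), an acyl desaturase, was at log2 CPM of 1.79, 2.75 and 2.24 in cool white light, 3.75, 4.32 and 5.17 in warm white light, 5.27, 5.22 and 5.56 in cool shade and 5.22, 5.06 and 4.97 in warm shade. Every treated library was above cool white light, and its warmth response in shade, -0.27, did not pass (interaction -2.42 ± 0.369, limma adjusted p = 0.000726). FAR1 (AT5G22500), a fatty acyl reductase and not the light signalling gene of that symbol, rose by 1.77 with warmth, 2.15 with shade and 2.37 with both (interaction -1.55 ± 0.265, limma adjusted p = 0.00313). The GDSL lipase gene AT4G18970 had an interaction of -0.98 ± 0.168 (limma adjusted p = 0.00314).

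FATB (AT1G08510), the thioesterase that releases saturated fatty acids in plastids, had an interaction of -0.64 ± 0.131. KCS16 (AT4G34250), of the enzymes that lengthen fatty acids, had one of -0.90 ± 0.207, and HTH (AT1G72970), needed for the cuticle that separates floral organs, one of -0.79 ± 0.183. SQD2 (AT5G01220), which makes the sulfolipid of plastid membranes, was above the sum at 0.86 ± 0.193. These last calls were less firm: leaving out 1 library ended the FATB call in 4 fits, KCS16 and HTH in 8 and SQD2 in 10 of 12, with values from -0.70 to -0.55, -1.08 to -0.75, -0.93 to -0.68 and 0.74 to 1.01.

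The 7 genes of plastids, pigments and sugar phosphates split, 4 above and 3 below. PORB (AT4G27440), the enzyme that makes chlorophyllide in light, was at log2 CPM of 8.97, 9.08 and 9.02 in cool white light, 9.80, 9.94 and 10.29 in warm white light, 9.30, 9.41 and 9.36 in cool shade and 9.21, 8.85 and 8.95 in warm shade. It was highest in warm white light, and its combined response was -0.02. Warmth raised PORB by 0.99 in white light and changed it by -0.36 in shade, an interaction of -1.34 ± 0.157 (limma adjusted p = 2.27e-05). Among 16 chlorophyll synthesis genes it was the only 1 to pass, where 0.319% of all genes passed below, and the list median was -0.24.

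LHCB1.4 (AT2G34430), an antenna protein of photosystem II, fell with both cues. It stood at 10.68, 10.71 and 10.77 in cool white light, 8.46, 8.34 and 7.77 in warm white light, 9.83, 9.92 and 9.83 in cool shade and 8.44, 8.13 and 8.32 in warm shade. The warm groups overlapped across the lights, and the cool ones did not. The interaction was 0.97 ± 0.176 (limma adjusted p = 0.0054), and near-identical copies of this gene may share its reads. Of 45 photosynthesis genes only LHCB1.4 passed, above the sum, where 0.127% of all genes passed above. Estimates lay above 0 in 38 of the 45, beside 8908 of the 21316 genes tested, with a list median of 0.21. LHCB1.1 and LHCB2.1 had interactions of -0.42 ± 0.21 and 0.13 ± 0.138 and did not pass.

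CHS (AT5G13930), chalcone synthase at the entry to flavonoids, fell mainly with shade. Its values were 8.34, 8.54 and 8.41, then 7.80, 7.75 and 7.46, in white light and 6.16, 6.84 and 6.38, then 6.53, 6.60 and 6.54, in shade. The shade groups overlapped. Warmth changed CHS by -0.76 in white light and by 0.09 in shade (interaction 0.85 ± 0.18, limma adjusted p = 0.022). The call was lost in 6 of the 12 fits with 1 library left out, with values from 0.70 to 1.05 over the 12. Without the library with most 18S reads of each group the interaction of CHS was 0.52 (limma adjusted p = 0.489), and 3 of the 7 plastid and pigment genes held. Of 23 flavonoid genes 1 passed, above the sum, where 0.127% of all genes passed above. Estimates lay above 0 in 17, beside 8908 of the 21316 genes tested, with a median of 0.72. F3H at 0.97 ± 0.275 and UGT78D1 at 0.78 ± 0.211 did not pass (limma adjusted p = 0.133 and 0.11). The window before CHS, on the plus strand at chr5:4488176-4488475 of TAIR10.1, is shown for its G-box, in capitals, since sites with the letters ACGT act in the light response of chalcone synthase genes of several plants.
CHS: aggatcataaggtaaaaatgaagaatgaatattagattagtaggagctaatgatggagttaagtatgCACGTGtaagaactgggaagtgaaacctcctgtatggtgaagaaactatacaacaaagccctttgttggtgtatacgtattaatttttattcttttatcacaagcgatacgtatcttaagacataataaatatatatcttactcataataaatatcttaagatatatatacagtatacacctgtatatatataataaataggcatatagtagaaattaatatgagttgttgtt

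TRXY2 (AT1G43560), a plastid thioredoxin, had an interaction of 1.03 ± 0.223, with responses of -1.03 to warmth, -0.87 to shade and -0.86 to both. FBA5 (AT4G26530), an aldolase, fell by 2.15 with warmth, changed by 0.63 with shade and by -0.28 with both (interaction 1.24 ± 0.281). CP29 (AT3G53460), a chloroplast RNA-binding protein, changed by 0.16 and 0.14 with the single cues and fell by 0.43 with both, and CPN60A (AT2G28000), a subunit of the plastid chaperonin, had an interaction of -0.67 ± 0.133. Adjusted p-values of limma for these 4 genes were 0.0254, 0.0374, 0.00653 and 0.0126. The CPN60A call was lost without library 2 of warm white light (-0.65) or library 1 of cool shade (-0.61), the TRXY2 call in 9 fits (0.88 to 1.16) and the FBA5 call in 6 (0.85 to 1.52).

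Genes of starch, nitrate and low energy numbered 8. BAM3 (AT4G17090), the main beta-amylase of starch breakdown in chloroplasts, was at log2 CPM of 8.04, 7.84 and 8.12 in cool white light, 5.43, 5.00 and 4.49 in warm white light, 6.52, 6.57 and 6.28 in cool shade and 5.28, 4.62 and 4.97 in warm shade. It had the lowest sum of single responses of the 95, at -4.57, and the combined response was -3.04. Warmth lowered BAM3 in both lights, with changes of -3.03 in white light and -1.50 in shade, and the interaction was 1.53 ± 0.242 (limma adjusted p = 0.00121). NRT1.7 (AT1G69870), which loads nitrate into phloem, had an interaction of 1.13 ± 0.251 (limma adjusted p = 0.0328), a call lost in 11 of the 12 fits with 1 library left out, with values from 0.87 to 1.45.

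The other 6 lay below the sum. NPF1.2 (AT1G52190), a nitrate carrier, rose by 1.46, 2.19 and 2.35 with warmth, shade and both (interaction -1.30 ± 0.194, limma adjusted p = 0.000631). SEN1 (AT4G35770), induced by darkness and sugar shortage, rose by 1.54, 1.73 and 2.27 (interaction -0.99 ± 0.21, limma adjusted p = 0.0225), and DRM1 (AT1G28330), a marker of dormant buds, by 0.95, 1.11 and 1.27 (interaction -0.79 ± 0.151, limma adjusted p = 0.00835). SAG20 (AT3G10985) and ACR4 (AT1G69040, of the ACT domain family) had interactions of -0.87 ± 0.143 and -1.10 ± 0.18 (limma adjusted p = 0.00179 and 0.00174), and the beta-amylase homologue BMY3 (AT5G18670) one of -1.00 ± 0.213 (limma adjusted p = 0.0254). Without 1 library the SEN1 and BMY3 calls were lost in 6 fits each (-1.24 to -0.78 and -1.11 to -0.87). Of 22 genes of the low energy list only SEN1 passed, where 0.319% of all genes passed below, and the median was -0.23. ASN1, glutamine-dependent asparagine synthetase, had -0.50 ± 0.431.

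PHYA (AT1G09570), the photoreceptor that accumulates in darkness and senses far-red light, was the only photoreceptor gene past the threshold. It stood at log2 CPM of 7.75, 7.89 and 7.75 in cool white light, 8.50, 8.64 and 9.15 in warm white light, 9.05, 9.10 and 9.14 in cool shade and 9.35, 9.15 and 9.26 in warm shade. All 9 treated libraries were above cool white light, and warmth added 0.16 in shade after 0.97 in white light (interaction -0.81 ± 0.166, limma adjusted p = 0.0181, lost in 4 of 12 fits with 1 library left out, -0.95 to -0.62 over the 12). BBX27 (AT1G68190), a B-box factor, had an interaction of -0.76 ± 0.173 and the clock-related MYB gene RVE2 (AT5G37260) one of 1.27 ± 0.294 (limma adjusted p = 0.0412 and 0.0444). These calls were lost in 10 and 8 fits, with values from -0.82 to -0.66 and 1.03 to 1.45. Without the library with most 18S reads of each group none of these 3 calls held, as against 2 of 8 for starch, nitrate and low energy and 3 of 7 for wax and lipid.

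The best known markers of either cue were not among the 95 genes. PHYB had an interaction of 0.31 ± 0.164 and PIF4, the factor that links phytochrome B to growth in warmth, one of -0.16 ± 0.193. Among shade markers, HFR1 had -0.48 ± 0.321, ATHB-2 0.39 ± 0.339 and PIL1 -1.27 ± 0.672. Of 14 genes of the shade marker list and 27 auxin response genes none passed, with list medians of -0.30 and 0.08. At an unadjusted p under 0.05 were 3 and 5 of them, beside 2101 of the 21316 genes tested. IAA19, an early auxin gene, rose by 1.92 with shade and 2.39 with both, and its interaction was 0.30 ± 0.251.

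HSP18.2, a small heat shock protein, rose by 6.46 with warmth in white light and 6.18 in shade, an interaction of -0.28 ± 0.412, with the largest warmth response of the key genes. HSP70 likewise rose by 1.82 and 1.73 (interaction -0.09 ± 0.248). None of 28 heat shock and chaperone genes passed, 4 were at an unadjusted p under 0.05 and the list median was -0.12. Of the estimates 19 lay below 0 and 9 above, beside 12408 and 8908 of the 21316 genes tested. Not all were as near to 0 as HSP18.2 and HSP70. HSP22.0 had an interaction of -3.347 ± 0.889 and HSC70-1 one of -0.576 ± 0.143 (limma adjusted p = 0.0975 and 0.067). Warmth changed HSP22.0 by 6.546 in white light and 3.199 in shade, and HSC70-1 by 0.481 and -0.095. A p that misses the threshold does not show that these genes add: for PIL1 or for GolS1 (-1.00 ± 0.471) the error leaves room for departures as large as those called elsewhere.

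**Figure D4:**
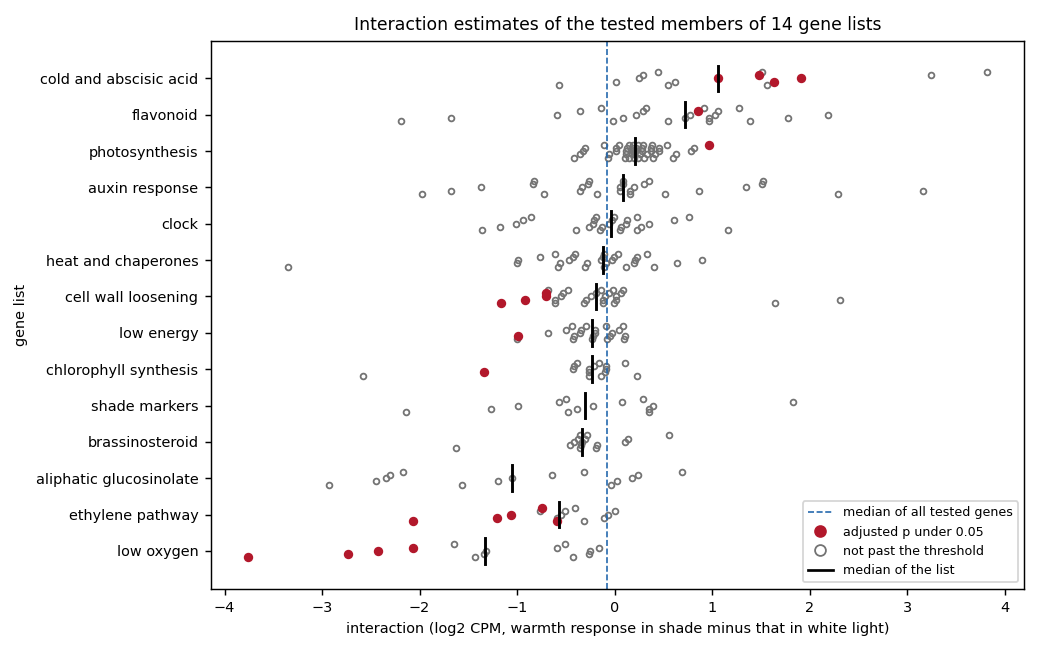
Interaction (x axis, log2 CPM) of each tested gene of 14 gene lists (rows); filled red points passed the threshold, open points did not, black bars are list medians and the dashed line is the median of all tested genes (-0.08). The low oxygen and ethylene lists lie to the left, with medians of -1.33 and -0.57, and the list of cold and abscisic acid genes to the right, at 1.06. The ethylene list was written after the values were seen.

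Among lists with no gene past the threshold, that of aliphatic glucosinolate synthesis had a median of -1.05 over 15 genes. Of these 7 were at an unadjusted p under 0.05, beside 2101 of the 21316 genes tested. CYP83A1 had -2.93 ± 0.951 and MAM3 -1.05 ± 0.31 (limma adjusted p = 0.225 and 0.155). The brassinosteroid list had a median of -0.33 with 5 of 15 genes at that level, and the clock list one of -0.04 with 2 of 26. The lists of cell cycle and root hair genes, kept as markers of the makeup of the seedlings, had medians of 0.01 and 0.01 and no call. Of 10 root hair genes, 5 rose with warmth in white light and 3 in shade, beside 10.8% and 2.19% of all genes. Whether this has a part in any interaction was not tested. Of 18 starch genes BAM3 alone passed, above the sum, beside 0.127% of all genes, with a list median of 0.00. Of 23 photoreceptor and light signalling genes PHYA alone passed, below the sum, beside 0.319% of all genes, with a median of -0.14. The list of group VII ERF genes, written after the values were seen, had 2 of 4 below the sum and a median of -1.04. Over all genes 0.319% passed below, and nothing is read from that distance. No gene passed in the lists of auxin synthesis (median -0.51 over 7 genes), seed storage (-0.39 over 7), B-box factors (-0.22 over 9), endoplasmic reticulum chaperones (-0.12 over 10), stomatal lineage (-0.05 over 13), growth bHLH factors (0.05 over 11) or gibberellin (0.06 over 18). The same held for nitrate assimilation (0.10 over 11), salicylic acid immunity (0.10 over 11), jasmonate (0.15 over 17) and photoprotection (0.51 over 4), beside a median of -0.08 over all genes tested. At an unadjusted p under 0.05 these 11 lists held from 0 to 4 genes each.

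Among the 40 remaining genes, the rule of largest changes named some with little known role. CRK18 (AT4G23260), a receptor-like kinase, had 1.66 ± 0.343, the chitinase family gene AT2G43620 1.55 ± 0.341, AT1G78450 1.51 ± 0.334 and AT1G56660 1.24 ± 0.218. Below the sum AT5G22580 had -3.003 ± 0.623, AT3G20395 -2.26 ± 0.308 and AT3G27220 -2.01 ± 0.448. Interactions of -3.88 ± 0.828 and -3.47 ± 0.692 belonged to chloroplast identifiers at low levels: ATCG00930 and ATCG01200 have identical reads, as do ATCG00940 and ATCG01190, so each pair is 1 measurement. Their warm shade libraries held 0.65, 1.08 and -1.41 log2 CPM for the first pair and 1.10, 1.08 and 0.46 for the second, the lowest of the groups by mean.

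Several of these calls rested on single libraries. That of ATCG00940 was lost without library 3 of warm white light (-2.75), those of ATCG00930, AT5G22580 and CRK18 in 5 fits each (-4.37 to -3.12, -3.31 to -2.65 and 1.42 to 2.02), that of AT2G43620 in 6 (1.26 to 1.79), AT1G78450 in 8 (1.33 to 1.66) and AT3G27220 in 9 (-2.41 to -1.62). Neither chloroplast pair held without the library with most 18S reads of each group. AZI1 (AT4G12470), a lipid transfer protein of systemic immunity, rose by 0.39 with warmth in white light and fell by 0.78 in shade (interaction -1.16 ± 0.174, limma adjusted p = 0.000631). It was chosen for that after its values were seen. FER1, ferritin, at 0.66 ± 0.144, overlaps the antisense gene AT5G01595, at 0.88 ± 0.17, and AT5G01210 and the antisense AT5G01215 have the same reads (-0.89 ± 0.175). The library kit is not stated to keep the strand, so these pairs cannot be told apart, and the 95 genes give 92 distinct profiles of reads. Leaving out 1 library ended the FER1 call in 7 fits (0.57 to 0.73) and that of AT5G01210 without library 2 of warm white light (-0.79) or of warm shade (-0.78).

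Windows of 300 bases before the annotated start were read for 91 of the 95 genes and for 33054 nuclear genes. The G-box letters CACGTG were in 5 of the 27 windows above the sum (18.5%), in 4 of the 64 below it (6.25%) and in 6.45% of all windows. The PBE-box letters CACATG, another PIF site, were in 33.3%, 15.6% and 13.3%, and the core of the evening element of the clock, AATATCT, in 22.2%, 12.5% and 11.5%. The drought response core was in 7.41%, 4.69% and 2.93% as GCCGAC and in 22.2%, 1.56% and 5.16% as ACCGAC. The form ACCGAC was added after the window of RD29A, itself a gene above the sum, had been read, so its share there is not separate evidence. Of the 6 cold-responsive genes 2 held it. The abscisic acid response core ACGTGGC was in 7.41%, 3.12% and 3.33%, the heat shock element GAANNTTC in 3.7%, 12.5% and 11.6%, and the auxin response element TGTCTC in 14.8%, 12.5% and 13.1%. Both strands were searched, ACGTGGC can overlap with CACGTG, and no test was made. These shares describe letters in a window, and 27 genes give few windows.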

How the data were processed

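RNA of 12 libraries was sequenced as read pairs. The deposited table holds log2 values, which the authors made as voom does, from CPM after adding 0.5 to each read count; it writes decimals with commas and heads its temperatures as ambient and heat, taken here as 20 and 28 °C. TopHat2 2.1.1, SAMtools 1.3, limma, R 4.0.2 and the build TAIR10 are named in the submitters' processing notes; the read counter is not given in the sources used here. Every value came back to whole reads within 0.001 read, and 3500325 to 4481869 reads per library limit the precision of low genes.

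Genes with values of at least 0 in at least 3 libraries were fitted by 4 group means with limma 3.58.1 in R 4.3.3 (lmFit, then eBayes with trend). P-values were adjusted by Benjamini-Hochberg over 21316 genes, at 0.05. The script was tested on simulated data. Over all genes tested same-numbered libraries did not deviate together (residual correlations of -0.0297 to 0.0414 over 18 pairs), so no block was used. The p-values measure the spread between libraries described as biological replicates. Named genes were the 12 largest positive and 12 largest negative interactions of genes past the threshold whose mean log2 value was 1 or more, up to 2 called genes of each of 28 lists with the smallest adjusted p, key genes, and members of role groups written after the values were seen; 2 lists were added then too. Members and lists were chosen with earlier results of these data known. Of the table's identifiers 32835 matched the RefSeq annotation of TAIR10.1, which gave names and promoter windows by locus identifier, and 767 did not. Figures used Python 3.11.15 and matplotlib 3.10.9.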

Additional observations from a re-analysis of the deposited data

Results flagged for a closer look

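A response to warmth that differs between shade and white light is itself what was tested here, so each named gene past the threshold qualified through the interaction term, with limma and adjustment over all genes. The values are log2 differences, warmth response in shade minus that in white light, each over 12 libraries. Among the ethylene and low oxygen genes the difference was -3.76 for PCO1, -2.74 for HRA1, -2.43 for LBD41, -2.06 for ETR2, -1.67 for RAP2.3, -1.21 for EBF2, -1.06 for EBF1, -0.77 for RAP2.2, -0.75 for EIN2 and -0.59 for ACO4. Among the cold-responsive genes the difference was 0.57 for SRC2, 1.06 for COR413IM1, 1.07 for AT4G30650, 1.48 for RD29A, 1.63 for KIN2 and 1.91 for KIN1. Among the cell wall and growth genes the difference was -1.71 for GASA14, -1.66 for ARL, -1.51 for BXL2, -1.35 for GASA6, -1.16 for EXPA8, -1.05 for DGR2, -1.02 for LNG1, -0.92 for BXL1, -0.92 for EXPA3, -0.74 for PIP1A, -0.73 for AT3G07010, -0.70 for XTH9, -0.70 for XTH4 and 0.74 for PIP2E. Among the wax and lipid genes the difference was -2.42 for ADS1, -1.55 for FAR1, -0.98 for AT4G18970, -0.90 for KCS16, -0.79 for HTH, -0.64 for FATB and 0.86 for SQD2. Among the plastid, pigment and sugar phosphate genes the difference was -1.34 for PORB, -0.73 for CP29, -0.67 for CPN60A, 0.85 for CHS, 0.97 for LHCB1.4, 1.03 for TRXY2 and 1.24 for FBA5. Among the carbon and nitrogen genes the difference was -1.30 for NPF1.2, -1.10 for ACR4, -1.00 for BMY3, -0.99 for SEN1, -0.87 for SAG20, -0.79 for DRM1, 1.13 for NRT1.7 and 1.53 for BAM3. Among the light and clock regulators the difference was -0.81 for PHYA, -0.76 for BBX27 and 1.27 for RVE2. Among the remaining named genes the difference was -3.88 for ATCG00930, -3.88 for ATCG01200, -3.47 for ATCG00940, -3.47 for ATCG01190, -3.003 for AT5G22580, -2.26 for AT3G20395, -2.01 for AT3G27220, -1.16 for AZI1, -0.89 for AT5G01210, -0.89 for AT5G01215, 0.66 for FER1, 0.88 for AT5G01595, 1.24 for AT1G56660, 1.51 for AT1G78450, 1.55 for AT2G43620 and 1.66 for CRK18.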

How the results depend on the processing

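All 95 genes kept their sign under the log-scale alternatives, which numbered 24 of the 25 run, but how many passed moved with the settings. Against 95 genes (27 above and 68 below the sum), a constant prior variance gave 6 (4 and 2). Only 2 of these, KIN1 and KIN2, were among the 95. A robust prior variance gave 101 (33 and 68), with 80 of the 95 among them. The linear CPM scale gave 10 (7 and 3), an adjusted p of 0.01 gave 41 (9 and 32) and the replicate block 138 (39 and 99). Leaving out the library with most 18S reads of each group, an alternative chosen after seeing the data, gave 42 (12 and 30), with 34 of the 95 among them. Quantile normalization kept 75 of the 95, and trimmed mean scaling and subtracted medians kept 84 each. Leaving out 1 library at a time gave 59 to 155 (15 to 51 above and 42 to 104 below): 59 without replicate 3 of cool shade, 61 without replicate 3 of warm shade and 155 without replicate 1 of warm white light, and 43 genes held in all 12 fits. Scaling changed the balance more than the total. The share below the sum was 71.6% and became 52.6% with quantile normalization (45 above, 50 below), 55.9% with trimmed mean scaling (45 and 57), and 60.6% with library medians subtracted (37 and 57); with trimmed mean scaling the median interaction of all genes moved from -0.08 to -0.01. On the linear CPM scale 94 genes kept their sign, EXPA8 moved to 0.011, and KIN1, BAM3 and LHCB1.4 remained past the threshold. Over all genes tested same-numbered libraries showed no shared deviation, a check that cannot exclude pairing in part of the genes. With the block all 95 genes kept their call. Of key genes that did not pass, COR15A passed with 2 reads added or with the block (adjusted p = 0.0333 and 0.0456) and XTH15 with the block (adjusted p = 0.033), and both without replicate 1 of warm white light.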
